A study of Mus musculus with 15 samples.

Results

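TRBV20 is one of the variable (V) gene families from which the beta chain of the mouse T-cell receptor (TCR) is built, and is also known under the older name Tcrb-V15. TRBV20 receptors were taken as all table entries whose V family was given as TRBV20. They numbered 1229 of 59364 clonotypes over 15 libraries and held 3054 of 347293 counts. Entries of a library were counted as separate clonotypes where they differed in V family, in J cluster or in the nucleotides of CDR3, the third complementarity-determining region. TRBV20 was chosen by its clonotype shares in these libraries, which were higher among tetramer-binding than among non-binding CD8 T cells. That contrast is therefore described here without a test.

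The cells came from 125-day-old NOD mice, which develop diabetes through an immune attack on their own beta cells. Ifngr1-mutant NOD mice, labelled Ifngr-1-mutant, carry a mutation in the gene for the ligand-binding chain of the interferon-γ receptor, and wild-type (WT) NOD mice do not. The labels give neither the kind of mutation nor the cells it acts in. Spleen and non-draining lymph nodes were pooled within each mouse, stained with an H-2Kd tetramer carrying a peptide of the beta-cell autoantigen IGRP, and separated magnetically into cells that bound the tetramer (TET) and CD8+CD44+ cells that ran through (CD8). The groups were mutant TET (n = 4), WT TET (n = 3), mutant CD8 (n = 4) and WT CD8 (n = 4), each library being from 1 mouse. The WT TET 4 library was not analysed here. Both fractions were available for 7 mice. The tables hold TCRβ sequences and no other transcript, so the labelled cell type could not be checked against other markers.

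A TCRβ chain is made in the thymus by joining 1 V, 1 D and 1 J segment. The V segment encodes the CDR1 and CDR2 loops, which mostly face the MHC molecule, and the start of CDR3. The CDR3 loop spans the joins, where bases are trimmed and added, and it lies over the bound peptide. In the mouse the D and J segments form 2 clusters, TRBJ1 and TRBJ2. In the RefSeq annotation (GRCm38.p6) Trbv20 lies between Trbv19 and Trbv21 in the order of the locus. CD8 T cells that recognise IGRP are a well-studied population in NOD diabetes.

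The nucleotide CDR3s below are the largest TRBV20 clonotypes of TET libraries and those that recurred most widely among them, printed to show which bases each receptor took from TRBV20 and which lie between V and J. Bases in capitals are those that the authors' alignment assigned to neither the V nor the J segment. Lower case at the left is TRBV20, and lower case at the right is the J segment.

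mutant TET 1, largest, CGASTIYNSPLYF: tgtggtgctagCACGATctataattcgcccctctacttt
mutant TET 2, tied largest, TRBJ1-6: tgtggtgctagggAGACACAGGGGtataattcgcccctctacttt
mutant TET 3, largest, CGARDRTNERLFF: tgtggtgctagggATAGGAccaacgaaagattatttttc
WT TET 1, largest, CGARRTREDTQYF: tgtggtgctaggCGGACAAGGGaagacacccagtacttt
WT TET 3, largest, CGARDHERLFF: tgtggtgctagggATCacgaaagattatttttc
in 3 TET libraries, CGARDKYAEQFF: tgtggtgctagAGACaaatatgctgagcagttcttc
in 3 TET libraries, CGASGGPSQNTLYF: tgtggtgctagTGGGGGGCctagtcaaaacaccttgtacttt
in 2 TET libraries, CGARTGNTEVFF: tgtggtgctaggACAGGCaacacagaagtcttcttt
in 2 TET libraries, TRBJ1-4: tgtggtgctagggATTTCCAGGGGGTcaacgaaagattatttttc

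The number of capital bases ran from 3 in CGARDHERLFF to 13 in the last of these. Where TRBV20 kept 12 or 13 of its bases, the fourth residue was arginine, as in CGAR. Where it was cut back to 11, the next base set that residue, and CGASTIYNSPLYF and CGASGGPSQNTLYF have serine there.

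Total counts were 17294, 22448, 21966 and 60164 in mutant TET libraries, 4968, 14958 and 2536 in WT TET libraries, and 17116 to 32856 in CD8 libraries. The TET libraries held 393 to 2199 clonotypes in mutant mice and 97 to 126 in WT mice, so single WT TET values rest on 2 to 6 TRBV20 clonotypes. Mutant TET 4 and WT TET 2 stood apart. They shared 18 nucleotide clonotypes, which made up 88.9% of the counts of mutant TET 4 and 25.4% of those of WT TET 2, and 0 of these 18 were TRBV20. Tests that use TET libraries are given below with and without both. So are the means over all TET libraries for clonotype share, count share and CDR3 length. TET means of a single strain include them. Leaving both out was planned for the edgeR tests of clonotypes per family only. For the mean shares and all other measures it was chosen after seeing the data.

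TRBV20 made up a larger share of clonotypes in TET libraries than in CD8 libraries in 6 of 7 mice. In mutant TET libraries 1 to 4 the share was 6.52%, 5.96%, 6.32% and 3.56% of clonotypes. In WT TET libraries 1 to 3 it was 5.88%, 1.59% and 3.09%. In mutant CD8 libraries it lay between 1.54% and 1.73%, and in WT CD8 libraries between 1.33% and 2.29%. The only TET value inside the CD8 range was that of WT TET 2, with 2 TRBV20 clonotypes of 126 and an exact 95% binomial interval of 0.193% to 5.62%. The mean was 4.70% ± 1.93 in TET (SD, n = 7) and 1.74% ± 0.285 in CD8 libraries (SD, n = 8), a ratio of 2.71. Without WT TET 2 and mutant TET 4 the TET mean was 5.55% ± 1.40 (SD, n = 5).

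Within mice, the TET share was 3.76, 3.86, 3.80 and 2.19 times the CD8 share in mutant mice 1 to 4. The corresponding ratios in WT mice 1 to 3 were 3.08, 0.692 and 1.73. The first 3 mutant mice were thus close to one another, and the WT mice were spread on both sides of equality.

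By counts the picture differed. TRBV20 held 2.86%, 1.65%, 1.10% and 0.0299% of counts in mutant TET libraries and 2.13%, 0.0134% and 1.03% in WT TET libraries. The mean share of counts was 1.26% ± 1.05 in TET (SD, n = 7) and 0.865% ± 0.221 in CD8 libraries (SD, n = 8), and the difference of 0.395 percentage points was smaller than the spread among TET libraries. It was 0.127 points without mutant TET 1 and 0.602 points without WT TET 2. The share of counts was higher in TET than in CD8 in 5 of 7 mice. The lowest values were those of mutant TET 4 and WT TET 2, in which TRBV20 had 18 and 2 counts. Without them the TET mean was 1.76% ± 0.765 (SD, n = 5).

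**Figure D1:**
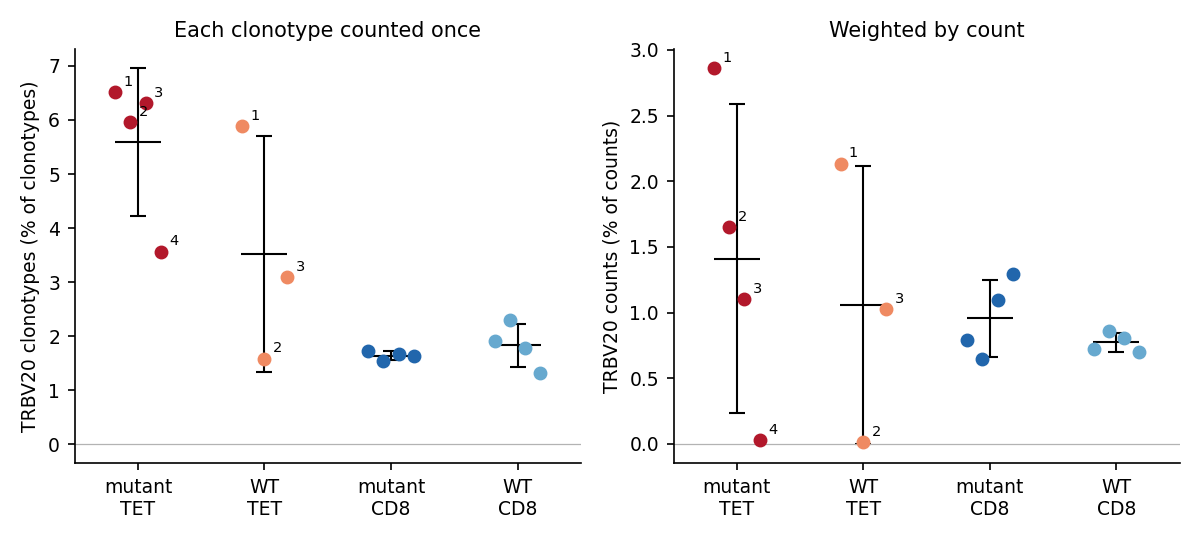
Share of TRBV20 in each library, as a percentage of clonotypes (left) and of counts (right). Points are libraries, numbers beside TET points are replicates, and bars are the group mean ± SD (mutant TET n = 4, WT TET n = 3, CD8 n = 4 each). By clonotypes, 6 of 7 TET libraries lie above all CD8 libraries; by counts, mutant TET 4 and WT TET 2 lie near 0 and the groups overlap.

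Whether the interferon-γ receptor mutation moved TRBV20 use was addressed within each fraction, a contrast that did not choose TRBV20. Among TET libraries TRBV20 averaged 5.59% ± 1.37 of clonotypes in mutant (SD, n = 4) and 3.52% ± 2.18 in WT mice (SD, n = 3), and the groups overlapped. The log2 fold change, mutant over WT, was 0.82 (SE 0.46), which did not pass the threshold of an adjusted p under 0.05 (edgeR quasi-likelihood test on clonotypes per family, adjusted p = 0.162 over 8 families). In that comparison 1 of 8 families was called (12.5%). This was TRBV13, the most abundant family, at -0.38, named after its values were seen. The TRBV20 fold change was 0.45 (adjusted p = 0.546) without WT TET 2 and mutant TET 4, 0.41 without WT TET 2 alone and 1.41 without WT TET 1.

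Among CD8 libraries TRBV20 averaged 1.64% ± 0.0787 of clonotypes in mutant and 1.83% ± 0.399 in WT mice (SD, n = 4 each). The log2 fold change was -0.11 (SE 0.14, edgeR adjusted p = 0.671), and the mutant values lay inside the WT range. edgeR called 0 of 17 families (0%), with 0 at an unadjusted p under 0.05, and DESeq2 called 0. The strain difference in TET minus that in CD8 was 0.93 for TRBV20 (SE 0.51, edgeR adjusted p = 0.311). That fit did not pair the TET and CD8 libraries of a mouse. The difference was smaller without WT TET 2 and mutant TET 4 (0.57), with TMM factors (0.24), with DESeq2 (0.33) and after rarefaction (0.12). It was larger with the mouse as a block, at 1.13 (edgeR unadjusted p = 0.0161, adjusted p = 0.103), and without WT TET 1, at 1.52 (adjusted p = 0.107). In the unpaired fit edgeR called 0 of 15 families (0%), with 3 at an unadjusted p under 0.05. DESeq2, also unpaired, called 2, TRBV13 and TRBV3, which are named after their values were seen.

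No strain difference in the other measures of TRBV20 passed its test. The share of TRBV20 clonotypes with a TRBJ1 segment was 45.5% ± 5.67 in mutant TET (n = 4) and 38.9% ± 34.7 in WT TET (SD, n = 3; exact permutation p = 0.83). It was 31.9% ± 4.08 in mutant CD8 and 35.1% ± 4.56 in WT CD8 libraries (SD, n = 4 each; exact permutation p = 0.343). Over 5 measures (share of counts, TRBJ1 share, mean CDR3 length, share with 1 count, and mean log2 count relative to the other families), two-sided exact p-values for TRBV20 lay between 0.686 and 0.914 in TET and between 0.2 and 0.83 in CD8 libraries. The smallest p these designs allow is 0.0286. Without WT TET 2 and mutant TET 4 the TET differences, mutant minus WT, were -14.3 points for TRBJ1, 0.413 amino acids for length, 40.8 points for clonotypes of 1 count, 0.293 points for the share of counts and -0.21 for mean log2 count, with exact adjusted p-values of at least 0.204. The exact permutation p was 0.1 there for TRBJ1 and for clonotypes of 1 count, the smallest that so few libraries allow. No measure could therefore pass without these libraries. Over all families, 0 of 55 tests in TET (0%) and 0 of 75 in CD8 (0%) passed after adjustment, with 3 and 2 at an unadjusted p under 0.05. With a smallest p of 0.0286, no test could pass adjustment unless most of the tests reached that p together. These counts therefore cannot show that strain differences were absent.

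TRBV20 clonotypes were small. The mean log2 count of a TRBV20 clonotype was lower than that of the other families in all 15 libraries. In CD8 libraries it averaged 0.71 ± 0.24 for TRBV20 and 1.56 ± 0.48 for the other families (SD, n = 8), a difference of -0.85 (two-sided exact sign-flip test over 8 libraries, p = 0.0078125, the smallest possible, adjusted p = 0.0127). Against this, 12 of 15 families (80%) were called lower than the rest by this measure, and the most abundant family, TRBV13, was the highest at 0.72. TRBV20 had the second lowest value, after TRBV2 at -0.91. Set against families other than TRBV13, the TRBV20 difference was -0.60 and still passed (exact sign-flip adjusted p = 0.0137).

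In CD8 libraries TRBV20 clonotypes were also more often seen once. In mutant CD8 libraries 1 to 4, 42.3%, 55.2%, 60.5% and 49.4% of TRBV20 clonotypes had 1 count, against 18.7%, 26.6%, 42% and 31.8% of the other clonotypes. In WT CD8 libraries the shares were 38.5%, 47.5%, 59.2% and 69.3% for TRBV20, against 14.9%, 18.2%, 28.9% and 36.0%. TRBV20 was higher in 8 of 8 libraries, on average by 25.6 percentage points (exact sign-flip p = 0.0078125, adjusted p = 0.0127). Of 15 families 8 (53.3%) were called higher, and TRBV2 was the only one above TRBV20, at 27.9 points. In TET libraries the TRBV20 share was higher in 4 and lower in 3 of 7 libraries, among them mutant TET 1 with 24.6% against 24.9% of the others, WT TET 1 with 0% against 11.5% and WT TET 3 with 0% against 21.3%. The mean difference was 13.6 points (exact sign-flip p = 0.3125, adjusted p = 0.4375), and -0.108 points without WT TET 2 and mutant TET 4 (adjusted p = 0.959).

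In TET libraries the TRBV20 difference in mean log2 count was -1.21 and was negative in 7 of 7 libraries, between -3.56 in WT TET 2 and -0.31 in mutant TET 1. It did not pass adjustment (exact sign-flip p = 0.015625, the smallest possible, adjusted p = 0.0688). TRBV17, at -1.55, and TRBV2, at -1.39, were lower still, and TRBV13 was the only family above 0. TRBV17 and TRBV31 were also negative in 7 of 7 libraries. Over the 4 measures tested within TET libraries 0 of 11 families (0% each) were called, with 15 of 44 tests at an unadjusted p under 0.05. Even at the smallest possible p, a test could pass adjustment only if many others reached it too. Set against families other than TRBV13, the difference was -0.40 (adjusted p = 0.296). Without WT TET 2 and mutant TET 4 the TRBV20 difference was -0.67, negative in 5 of 5 libraries (exact sign-flip p = 0.0625, the smallest possible there, adjusted p = 0.196). No sign-flip test over these 5 libraries could pass, for this or any other measure.

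With the libraries of a group pooled, the TRBV20 share fell with clonotype size in mutant TET and both CD8 groups, as a description. WT TET showed no such steady fall. In mutant TET libraries TRBV20 made up 138 of 1698 clonotypes with 1 count (8.13%), 151 of 2107 with 2 to 9 counts (7.17%), and 24 of 1415 with at least 10 (1.70%). Mutant TET 1 held 21 of those 24, and its own shares changed little, at 6.45%, 7.84% and 5.36% in these classes. In mutant CD8 libraries the shares of the same classes were 2.69%, 1.20% and 0.319%. In WT CD8 libraries they were 3.47%, 1.18% and 0.104%. In WT TET libraries the classes held 2 of 68, 3 of 47 and 6 of 210 clonotypes, or 2.94%, 6.38% and 2.86%. In the class of 2 to 9 counts the lowest mutant TET library, at 3.01%, was above the highest CD8 library, at 2.01%. In the other classes the groups overlapped: with 1 count mutant TET 4 had 5.29% and WT CD8 2 had 5.79%, and with at least 10 counts mutant TET 2 to 4 had 0.363%, 0.249% and 0% while mutant CD8 4 had 1.47%.

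**Figure D2:**
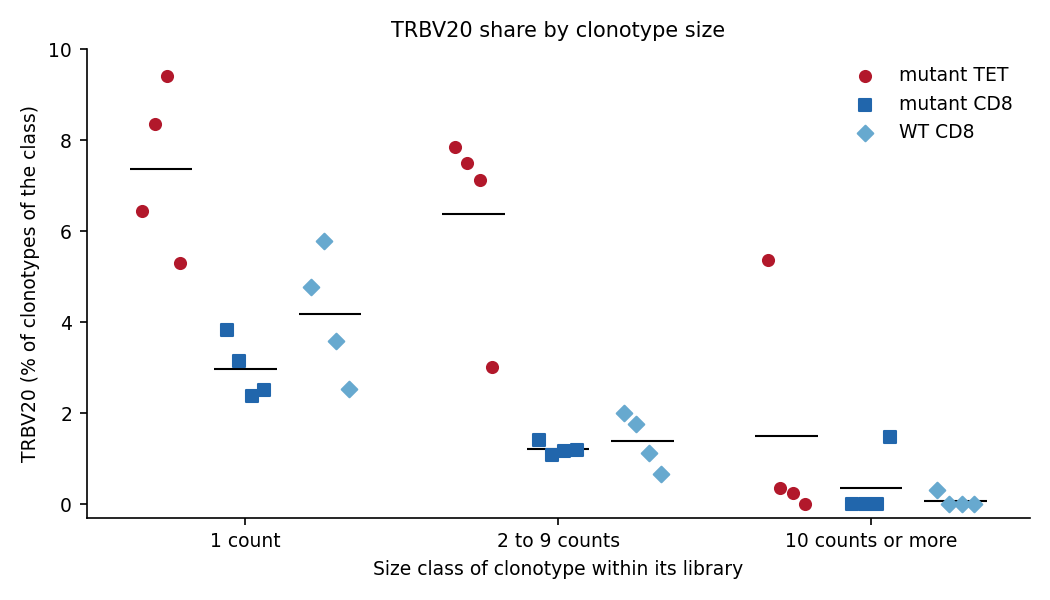
TRBV20 share (% of the clonotypes in a size class) by clonotype size, 1 point per library, with the group mean as a bar. WT TET is left out because it holds 11 TRBV20 clonotypes. Among the libraries plotted, mutant TET 1, at 5.36%, is the only one above 2% in the class of 10 counts or more.

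No TRBV20 clonotype led a TET library. The largest in mutant TET 1 was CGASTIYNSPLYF, joined to TRBJ1-6, with 74 counts or 0.428% of the library (95% interval 0.336% to 0.537%), the 17th largest clonotype there. The largest in mutant TET 2, printed above and also a TRBJ1-6 receptor, had 10 counts and was tied with another TRBV20 clonotype, at rank 485. In mutant TET 3 it was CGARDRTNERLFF, a TRBJ1-4 receptor of 16 counts at rank 238. In mutant TET 4 the largest, 4 clonotypes tied at 2 counts, among them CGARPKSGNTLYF, stood at rank 143.

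In WT TET 1 the largest was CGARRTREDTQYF, a TRBJ2 receptor with 29 counts or 0.584% of counts, at rank 48. In WT TET 3 it was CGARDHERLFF, a TRBJ1-4 receptor with 14 counts or 0.552%, at rank 59. In WT TET 2 both TRBV20 clonotypes, among them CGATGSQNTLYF, had 1 count. Among CD8 libraries mutant CD8 4 stood out with a TRBV20 clonotype of 52 counts at rank 11 of its library. The largest TRBV20 clonotype of the other 7 CD8 libraries had 6 to 13 counts.

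TRBV20 had short CDR3s. In CD8 libraries the mean length was 13.2 ± 0.157 amino acids for TRBV20 and 13.9 ± 0.0235 for the other families (SD, n = 8), shorter in 8 of 8 libraries by 0.683 on average (exact sign-flip p = 0.0078125, adjusted p = 0.0127). Of 15 families 5 (33.3%) were called shorter than the rest, and TRBV20 was the shortest, followed by TRBV13 at -0.322. The TRBV20 means were 13.3, 13.5, 13.0 and 13.0 in mutant CD8 libraries and 13.3, 13.2, 13.2 and 13.2 in WT CD8 libraries. All lay below the lowest value of the other families, 13.9.

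In TET libraries the mean length was 13.1 ± 0.542 for TRBV20 and 13.8 ± 0.205 for the other families (SD, n = 7), a difference of -0.659 (exact sign-flip p = 0.0625, adjusted p = 0.172). With clonotypes weighted by count the difference was -0.145 (adjusted p = 0.884). Without WT TET 2 and mutant TET 4 the TRBV20 mean was 13.1 ± 0.631 (SD, n = 5) and the difference -0.771 (exact sign-flip adjusted p = 0.289, in a test that could not pass with 5 libraries). TRBV20 was shorter in 5 of 7 TET libraries. These were the 4 mutant libraries, with means of 13.3, 13.2, 13.2 and 13.0, and WT TET 3 with 12 over 3 clonotypes. The exceptions were WT TET 1 and WT TET 2. The mean TRBV20 length was thus 13.2 ± 0.124 in mutant TET and 13.2 ± 0.235 in mutant CD8 libraries (SD, n = 4 each), so that the fractions differed by less than the spread between libraries.

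The whole distribution was shifted. The commonest length was 13 amino acids in TRBV20 and 14 in the other families in mutant TET, mutant CD8 and WT CD8 libraries. In mutant TET libraries 32.6% of TRBV20 clonotypes had 13 residues, against 20.01% of the others. The corresponding shares were 27.1% and 18.7% in mutant CD8 libraries, and 32.8% and 19.2% in WT CD8 libraries.

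**Figure D3:**
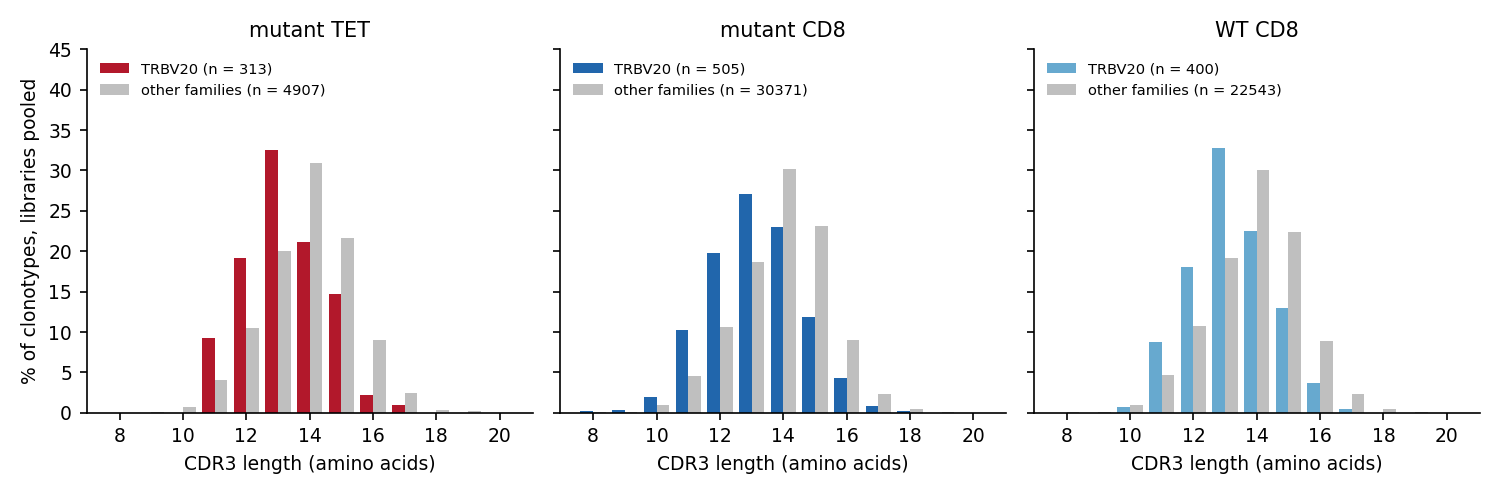
CDR3 length in amino acids (x axis) of TRBV20 clonotypes (coloured) and of the other families (grey), as % of clonotypes with the libraries of a group pooled. WT TET is left out because it holds 11 TRBV20 clonotypes. In each panel TRBV20 peaks at 13 residues and the other families at 14.

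By the authors' alignment, the shortness lay mostly at the V end, given as a description. In mutant TET libraries TRBV20 contributed 11.8 ± 0.301 bases to CDR3, against 13.7 ± 0.0694 for the other V families (SD, n = 4). In mutant CD8 libraries the values were 11.5 ± 0.496 and 13.4 ± 0.0944, and in WT CD8 libraries 11.7 ± 0.386 and 13.4 ± 0.0827 (SD, n = 4 each). The bases between V and J numbered 8.74 ± 0.465 in TRBV20 and 8.96 ± 0.233 in the other families of mutant TET libraries. The J segment gave 19.02 ± 0.533 and 19.02 ± 0.0762 bases there, so that neither of these stretches differed beyond its spread in that group. In mutant CD8 libraries there were 9.24 ± 0.696 bases between V and J in TRBV20 and 9.66 ± 0.0668 in the other families. In WT CD8 libraries there were 8.92 ± 0.490 and 9.54 ± 0.0737 (SD, n = 4 each), a gap wider than the spread.

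TRBV20 joined the TRBJ1 cluster more often than the other families did in CD8 libraries. There 33.5% ± 4.36 of TRBV20 clonotypes and 28.1% ± 1.68 of the others carried a TRBJ1 segment (SD, n = 8), higher for TRBV20 in 8 of 8 libraries (difference 5.38 percentage points, exact sign-flip p = 0.0078125, adjusted p = 0.0127). Of 15 families 5 (33.3%) were called higher. The gap was narrow in some libraries, with 26.3% against 25.7% in mutant CD8 4 and 29.8% against 28.4% in WT CD8 4. The call was lost without clonotypes of 1 count, where the difference was 5.58 points (adjusted p = 0.144), and with clonotypes weighted by count, where it was 4.09 points (adjusted p = 0.0917).

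In TET libraries 44.6%, 49.6%, 37.9% and 50% of TRBV20 clonotypes carried TRBJ1 in mutant mice, against 44.1%, 44.5%, 43.7% and 34.8% of the others. TRBV20 was therefore not uniformly above the rest, being lower in mutant TET 3. Over the 7 TET libraries the difference was 5.08 points (exact sign-flip p = 0.578, adjusted p = 0.652). It was -1.29 without WT TET 3, whose share of 66.7% rests on 3 clonotypes, 10.7 without WT TET 2 and mutant TET 4 (adjusted p = 0.573), and 18.03 with clonotypes weighted by count (adjusted p = 0.201). Within mice the TRBJ1 share of TRBV20 was higher in TET than in CD8 in 6 of 7, the exception being WT 2 with 0 of 2 clonotypes, but the other families were also higher in mutant TET than in any CD8 library.

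**Figure D4:**
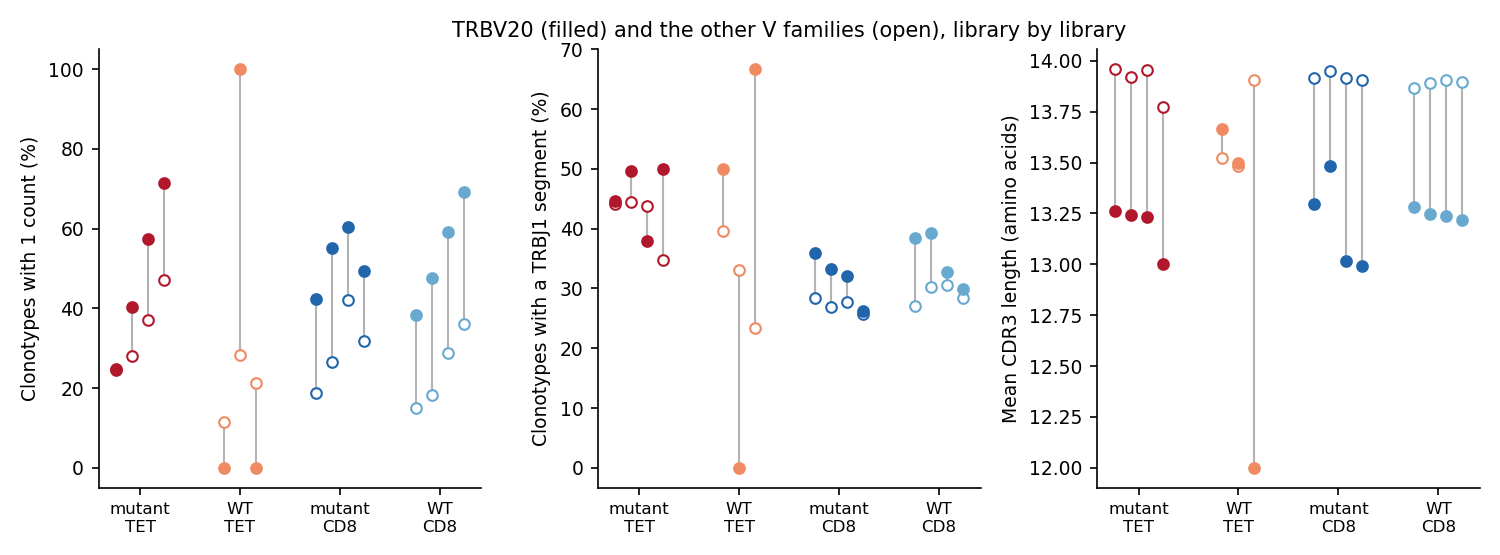
TRBV20 (filled) and the other V families (open) in each library, joined by a line, for the share of clonotypes with 1 count (%, left), the share with a TRBJ1 segment (%, middle) and the mean CDR3 length (amino acids, right, axis not starting at 0). In CD8 libraries the filled points lie above the open points in 8 of 8 for the first and second measures and below them in 8 of 8 for length.

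The J segment was read from the J length in the tables, which singles out TRBJ1-4, TRBJ1-6, TRBJ2-1, TRBJ2-2 and TRBJ2-7 and leaves the rest in groups. TRBJ1-4 was carried by 10.1% ± 2.43 of TRBV20 clonotypes in mutant TET, 5.50% ± 1.73 in mutant CD8 and 5.21% ± 2.32 in WT CD8 libraries (SD, n = 4 each). In the other families of mutant TET libraries TRBJ1-4 was carried by 9.92% ± 1.08 of clonotypes (SD, n = 4). TRBJ2-7 was carried by 14.3% ± 2.48 of TRBV20 clonotypes in mutant TET, 27.2% ± 5.88 in mutant CD8 and 15.97% ± 5.89 in WT CD8 libraries (SD, n = 4 each). The 4 mutant TET values, at most 17.5%, lay below the 4 mutant CD8 values, at least 19.2%. The other families had the same order, with 16.9% ± 2.66 in mutant TET (highest 20.8%), 22.4% ± 0.915 in mutant CD8 (lowest 21.5%) and 21.7% ± 1.60 in WT CD8 libraries (SD, n = 4 each). These segments were singled out after the values were seen and were not tested.

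**Figure D5:**
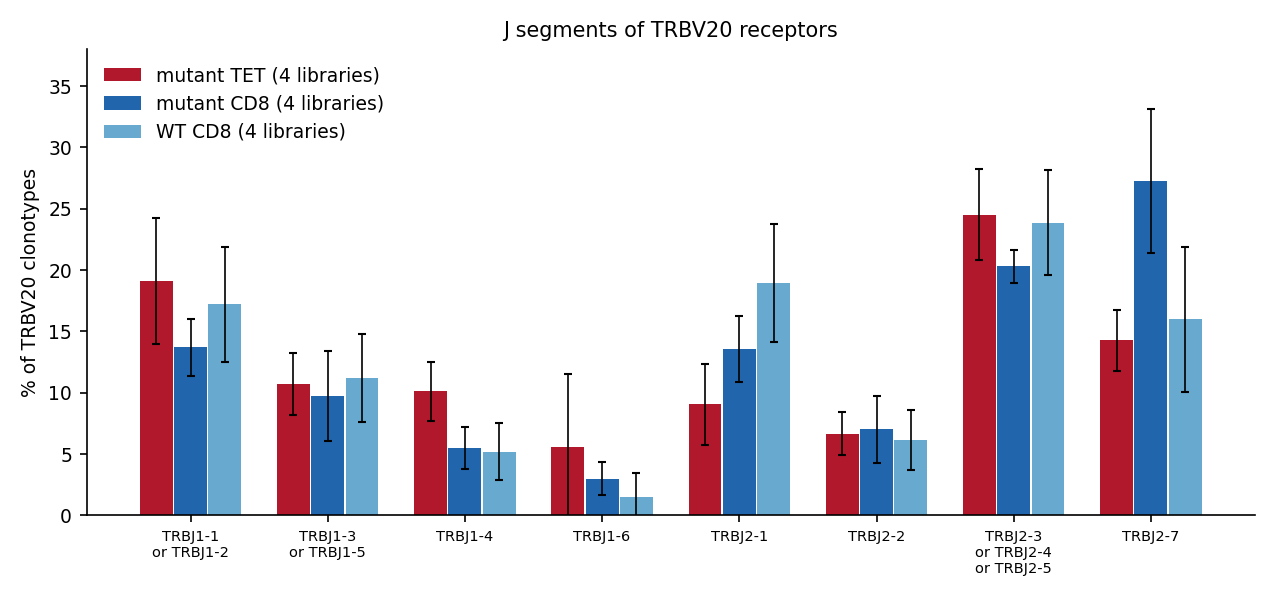
J segments of TRBV20 clonotypes as % of the TRBV20 clonotypes of a library, bars giving the mean and whiskers the SD over 4 libraries. Segments of equal length in the tables cannot be separated and share a bar. WT TET is left out because it holds 11 TRBV20 clonotypes. TRBJ2-7 shows the widest gap, 14.3% in mutant TET and 27.2% in mutant CD8.

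The start of the CDR3 was also uneven. Of all TRBV20 clonotypes 873 (71.0%) began with CGAR and 118 (9.60%) with CGAS, the start of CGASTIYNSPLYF and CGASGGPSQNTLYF printed above. CGAS was carried by 16.9%, 13.0%, 11.7% and 14.3% of TRBV20 clonotypes in mutant TET libraries, that is by 11, 17, 12 and 2 clonotypes. In mutant CD8 libraries the shares were 8.97%, 9.52%, 10.5% and 5%, and in WT CD8 libraries 5.13%, 8.20%, 6.40% and 10.5%. The lowest mutant TET value was above the highest CD8 value. The WT TET libraries held 2 such clonotypes of 11. This split was noticed in the data and was not tested.

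TRBV20 receptors were found in several libraries about as often as those of the other families. There were 1106 distinct amino acid CDR3s, of which 75 (6.78%) were found in at least 2 libraries, 11 in at least 3 and 3 in 4. Of the receptors of the other families, told apart by V family and CDR3, 7.02% were found in at least 2 libraries. In at least 2 mice the shares were 6.60% for TRBV20 and 6.89% for the other families. TET libraries held 293 and CD8 libraries 838 of them, and 25 were in both, which is a share of 8.53% of the first and 2.98% of the second. For the other families the corresponding shares were 19.4% and 1.92%. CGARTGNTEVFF was 1 of the 3 in 4 libraries, with 13 counts in mutant TET 1, 1 in mutant TET 2, 6 in mutant CD8 1 and 1 in WT CD8 2. It arose from 2 nucleotide sequences, 1 of them in WT CD8 2 only. The remaining pair, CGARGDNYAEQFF and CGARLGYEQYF, was found in CD8 libraries alone and is named after its values were seen.

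Within TET, 21 CDR3s were in at least 2 libraries and 2 were in 3. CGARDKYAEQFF, a TRBJ2-1 receptor, had 14 counts in mutant TET 1, 7 in mutant TET 2 and 8 in WT TET 3, where it made up 0.315% of counts. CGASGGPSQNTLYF, a TRBJ2 receptor, had 10, 5 and 1 counts in mutant TET 1, 2 and 3. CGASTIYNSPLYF had 74 counts in mutant TET 1 and 3 in mutant TET 3. The TRBJ1-4 sequence printed above with 13 bases between V and J had 10 counts in mutant TET 1 and 3 in mutant TET 2. Each of these receptors was encoded by 1 nucleotide sequence and was seen in 0 CD8 libraries, in which 3 counts would be 0.00913% to 0.0175% of a library. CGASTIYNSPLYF and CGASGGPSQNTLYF had at least 10 times as many counts in mutant TET 1 as in mutant TET 3. So did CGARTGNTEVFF in mutant TET 1, with 13 counts, as in mutant TET 2, with 1 count of the same nucleotide sequence. Whether such low counts came from cells of the mouse in whose library they were seen was not tested.

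A smaller part of TRBV20 clonotypes than of the others in TET libraries was also seen in CD8 libraries. Of 324 TRBV20 clonotypes in TET libraries 28 (8.64%) were seen in any CD8 library by nucleotide sequence, against 762 of 5221 (14.6%) of the other families. Of the same 324, 2 (0.617%) matched the CD8 cells of their own mouse, both in mutant 1, against 120 (2.30%) of the other families. In another TET library 44 (13.6%) were seen, against 737 (14.1%). These shares pool libraries of unequal depth. TRBV20 clonotypes were also smaller than the others. TRBV20 was chosen for a higher share in TET than in CD8, so its TET clonotypes faced relatively fewer CD8 clonotypes of their family. Seen from CD8, the order was the reverse, with 2.98% of TRBV20 receptors and 1.92% of the others also in TET. The parts of clonotype size and of this choice in the overlap were not tested.

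Of 10 families found in all libraries, TRBV31 (Pearson r = 0.84 of log2 clonotype shares over 15 libraries), TRBV1 (0.82) and TRBV2 (0.53) followed the TRBV20 share most closely. The libraries share their fractions and mice, so these values are descriptions. TRBV31 averaged 5.12% ± 0.992 of clonotypes in mutant TET (n = 4), 2.12% ± 0.982 in WT TET (n = 3), 1.42% ± 0.119 in mutant CD8 and 1.60% ± 0.256 in WT CD8 libraries (SD, n = 4 each). TRBV1 averaged 11.4% ± 0.288, 10.3% ± 5.61, 6.10% ± 0.613 and 6.14% ± 1.37 in the same order of groups. TRBV2 averaged 2.31% ± 0.347, 1.62% ± 1.28, 1.298% ± 0.0937 and 1.28% ± 0.205.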

How the data were processed

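TCRβ libraries of 15 samples were made from total RNA by 5′ RACE with 9-nt molecular identifiers and sequenced on a MiSeq instrument, per the labels' protocols. The authors deposited 1 table per library with the counts of each nucleotide CDR3; whether these are reads or identifiers is not given, and PCR reads are not independent molecules, so intervals (exact Clopper-Pearson, 95%) and floors (3 counts) cover only the error of counting. The fraction column that the authors deposited was not used, and shares were recomputed from counts. The tables name V families and J clusters only, so J segments were inferred from the deposited J length matched to RefSeq lengths. Aligner, clonotype caller and build: not given in the sources used here. Before any count, 4 rows naming alpha chain V segments (6 counts) were dropped.

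Groups follow the labels. Libraries of different mice are the replicates. The reported fit of TET minus CD8 did not pair the libraries of a mouse, and an alternative took the mouse as a block. Clonotypes per V family were tested with edgeR 4.0.16 (R 4.3.3; quasi-likelihood, minimum count 10, library size the clonotypes with a V family, no further normalization, no dispersion trend), and DESeq2 1.42.0 was an alternative. Other measures used two-sided exact permutation (strain) and exact sign-flip tests (TRBV20 against the other families of a library) in scipy 1.17.1, with Benjamini-Hochberg adjustment over all families and measures of a comparison. Within libraries, families needed at least 1 clonotype in every TET library or 10 in every CD8 library. The scripts were tested on simulated data. Members, lists and tests were chosen with earlier results of these data known. Receptors named by rule are the largest of each TET library and the 5 most widely shared among TET libraries (the rule also names the 3 families whose shares followed TRBV20). TET and CD8 samples with the same strain and number were treated as 1 mouse, following the design text; deviations of family use correlated between them with r from -0.29 to 0.40 over 11 families. Alternatives left out libraries, clonotypes of 1 count or shared clonotypes, and changed normalization, filter, weighting and depth.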

Additional observations from a re-analysis of the deposited data

Results flagged for a closer look

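One value lay far from the others of its group. The mean CDR3 length of TRBV20 in mutant TET 4 was 13.0 amino acids, while the other 3 mutant TET libraries lay between 13.2 and 13.3, so that the gap made up most of the range of the 4 libraries. The mean in mutant TET 4 rests on 14 clonotypes. Of 27 groups and measures examined, chance alone flags about 1 in 20. The mean of the other families was also lowest in this library among mutant TET, at 13.8 amino acids.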

How the results depend on the processing

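The TET against CD8 difference in TRBV20 clonotype share, 2.97 percentage points, was 2.52 to 3.13 under the other planned settings and 2.66 to 3.49 with 1 library left out (3.82 without WT TET 2 and mutant TET 4). For the share of counts it was 0.395 points, and 0.127 to 0.602 with 1 library left out. The strain differences of TRBV20 clonotypes passed their tests under none of the settings run. In TET they ran from 0.29 (DESeq2) to 1.07 (TMM factors) on the log2 scale, and from 0.41 to 1.41 with 1 library left out. The value of 1.41, without WT TET 1, came closest to passing (edgeR adjusted p = 0.0721). Rarefied TET libraries could not be fitted because TRBV20 fell under the filter. With the replicate number as a block (replicate block) the strain differences were 0.89 in TET (edgeR adjusted p = 0.263) and -0.12 in CD8 (adjusted p = 0.727). With the mouse as a block, which pairs its libraries, TET minus CD8 was 1.13 (SE 0.46, edgeR unadjusted p = 0.0161, adjusted p = 0.103). TET minus CD8 was 0.93 as reported, 0.11 by counts, 0.42 without clonotypes of 1 count, and 0.51 to 1.52 with 1 library left out. Deviations of same-numbered libraries of the strains correlated with r between -0.43 and 0.23 in TET and between -0.25 and 0.02 in CD8. These values cannot tell whether such libraries share more than a number. Neither block changed a call for TRBV20. In CD8 the TRBV20 difference turned positive without clonotypes of 1 count (0.083) and by counts (0.31), and ran from -0.288 to 0.0401 with 1 library left out, positive without WT CD8 2. The cause of these turns was not tested.

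The number of families called in TET, 1, was 0 with TMM factors, no filter, no clonotypes of 1 count, counts in place of clonotypes, clonotypes held at 10 times the count elsewhere removed, the replicate block, or both libraries that stood apart removed. It was 0 to 2 with 1 library left out, 2 without WT TET 3. For TET minus CD8 it was 0, against 1 with TMM factors, 2 with DESeq2 and 0 to 1 with 1 library left out.

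With 1 library left out, strain differences of TRBV20 in TET ran from -0.168 to 0.892 points for the share of counts (negative at -0.129 without mutant TET 1 and at -0.168 without WT TET 2), from -12.8 to 20.5 points for TRBJ1, from -0.399 to 0.435 amino acids for length, from -1.55 to 48.4 points for clonotypes of 1 count and from -0.41 to 1.18 for mean log2 count. In CD8 they ran from -0.144 to 0.0196 amino acids (0.0113 without mutant CD8 3) and from -6.83 to 3.45 points for clonotypes of 1 count (1.41 without mutant CD8 1 and 0.0867 without WT CD8 3). None passed. Without WT TET 2 and mutant TET 4 the signs of the strain differences in TRBJ1 (-14.3 points) and mean log2 count (-0.213), and of the difference in clonotypes of 1 count within TET libraries (-0.108 points), turned. Within TET libraries the TRBJ1 difference ran from -1.29 to 11.4 points. Within CD8 libraries the calls for length, clonotypes of 1 count and mean log2 count held under every setting run. The TRBJ1 call was lost without clonotypes of 1 count (5.58 points) and weighted by count (4.09 points), and held in 8 of 8 runs with 1 library left out. Setting TRBV20 against families other than TRBV13, and leaving out those 2 libraries beyond the family counts, was chosen after seeing the data. Depth limits WT TET most, where 3 counts are up to 0.118% of a library.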
